A study of Mus musculus with 23 samples.

Results

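The response of the heart to oil palm phenolics (OPP) was measured on 8 of the 23 arrays of the series. Of these 4 were from control hearts and 4 from OPP hearts, chosen by their labels alone. All mice were male BALB/c mice, 12 weeks old in the labels, on a normal diet. For 6 weeks the drink of the OPP mice was the extract, at 1500 ppm as gallic acid equivalent, while the control mice were given distilled water. OPP is a water-soluble mixture rich in phenolic acids, mainly isomers of caffeoylshikimic acid with protocatechuic acid and p-hydroxybenzoic acid. The hearts were excised after an overnight fast, under diethyl ether and after exsanguination. How much of the atria went into each RNA sample is not stated. The groups were housed in separate cages, so that cage and OPP cannot be told apart. The authors had put the RNA samples of highest integrity on the arrays.

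The heart muscle cell contracts by sliding myosin over actin within the sarcomere, and it depends on iron for its haem proteins and iron-sulfur enzymes. Iron enters cells through the transferrin receptor and leaves them through ferroportin, and the messenger RNA of the transferrin receptor is known to be degraded when cellular iron is plentiful. Metallothioneins are small cysteine-rich proteins that bind zinc and copper and are induced by metals, glucocorticoids and fasting. Phenolic compounds from plants are altered in the body by oxidation, methylation and conjugation, steps shared with the body's own hormones. The account below is of genes other than those of PPAR alpha, energy production and the ribosome.

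Each of 24048 probes gave an intensity and a detection p-value on every array, except for 66 probes without heart values. Probes entered the test if 3 or more arrays of a group gave them a detection p under 0.01, and a gene with several probes was taken at its brightest tested probe, which left 9172 probes, with 6661 named genes among them. Values are normalised intensities, and changes are OPP against control on the log2 scale with the standard error (SE) from limma. A gene was called at an unadjusted limma p under 0.01. The study set the same threshold under the Illumina Custom error model, in whose place limma was used here. By this rule 4.61% of all tested probes were called, 1.91% higher and 2.7% lower, and among genes 4.55% were called, 1.83% higher and 2.72% lower. After the Benjamini-Hochberg adjustment in limma 0 probes passed 0.05, the smallest adjusted p being 0.0751 for Rack1, while 1290 probes had an unadjusted p under 0.05. The calls below are therefore calls at the unadjusted threshold. The median change of all genes was 0.00 on the log2 scale, and the median fold change of the called probes was 1.3 in both directions. Of the called probes, 26 rose and 20 fell by more than 1.5-fold. More than 2-fold changes were seen in Mt2, Pdk4 and Tfrc. Of the 423 called probes 41.4% were higher. Scaling the arrays to their median in place of quantile normalisation shifted the median change of all tested probes to -0.118, with 1061 called probes of which 2.73% were higher, so that directions below are relative to the other genes of the heart.

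Between 9022 and 9785 probes were detected on the control arrays and between 9023 and 9475 on the OPP arrays. The background lay between 49.6 and 54.2 intensity units on the OPP arrays and between 56.6 and 61 on the control arrays, without overlap, and its part in the results was not tested. The pairwise correlation of the arrays was 0.965 to 0.992. Of the cardiac muscle markers on the array, 6 of 7 were detected on all 8 arrays. Their summed level was 146600 to 154300 in the controls and 153500 to 161600 with OPP, with a median change of 0.115. Only Myh6 was called among them, higher. The part of this level in the results was not tested.

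The hearts differed in genes that mark other tissue. Myl7, the atrial regulatory light chain of myosin, measured 10921, 9352, 11617 and 10985 in control replicates 1 to 4 and 9558, 11898, 2534 and 2711 in OPP replicates 1 to 4. Myl4, the atrial essential light chain, measured 16611, 15870, 17452 and 18120 in the controls and 17452, 16864, 7184 and 4717 in the OPP hearts. OPP replicates 3 and 4 were thus low in both atrial genes, whereas OPP replicates 1 and 2 lay within or next to the range of the controls. Their summed level was 25200 to 29080 in the controls and 7401 to 28740 with OPP, and Sln, the third atrial marker on the array, was detected on 0 arrays.

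Ucp1, the uncoupling protein of brown fat, measured 568, 1525, 123 and 1239 in the controls and 94, 1915, 20 and 22 with OPP, so that OPP replicates 3 and 4 were again lowest. Of the 9 fat cell markers on the array 2 were detected on all arrays and 3 on none (Plin1, Retn and Lep), and their summed level was 1600 to 5513 in the controls and 422.5 to 6385 with OPP. Thy1, a marker of T cells and thymocytes, measured 1014 in control replicate 2 and far less in every other heart, and the sum of the T cell markers was 168.3 to 3895 in the controls and 178 to 316.6 with OPP. The sum of the neutrophil markers was 159.1 to 1460 and 249.3 to 2288, with Ngp, Mpo and Elane detected on no array. The erythroid sum was 41390 to 44920 in controls and 38450 to 46650 with OPP. None of these lists held a called gene. Of 13 tested endothelial markers only Cd34 fell (-0.37), with sums of 9960 to 11140 and 10610 to 11670, and of 8 tested fibroblast markers 0 were called, with sums of 16290 to 20020 and 16590 to 18400. Fewer cells of a type and less RNA per cell cannot be told apart in these heart samples. The part of this make-up in the results was not tested, and the counts of called genes without OPP replicates 3 and 4 are given beside those of the lists. With those arrays left out, a choice made after the data had been seen, 122 probes were called. That fit holds 2 OPP arrays, so that a lost call there does not tell a smaller change from fewer arrays. All 109 called probes named in the text kept their direction in it, and 40 stayed called. Of the 109, 13 had a change under 2/3 of that on all 8 arrays. Both fits share the controls and OPP replicates 1 and 2, so that their changes are not independent.

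**Figure D1:**
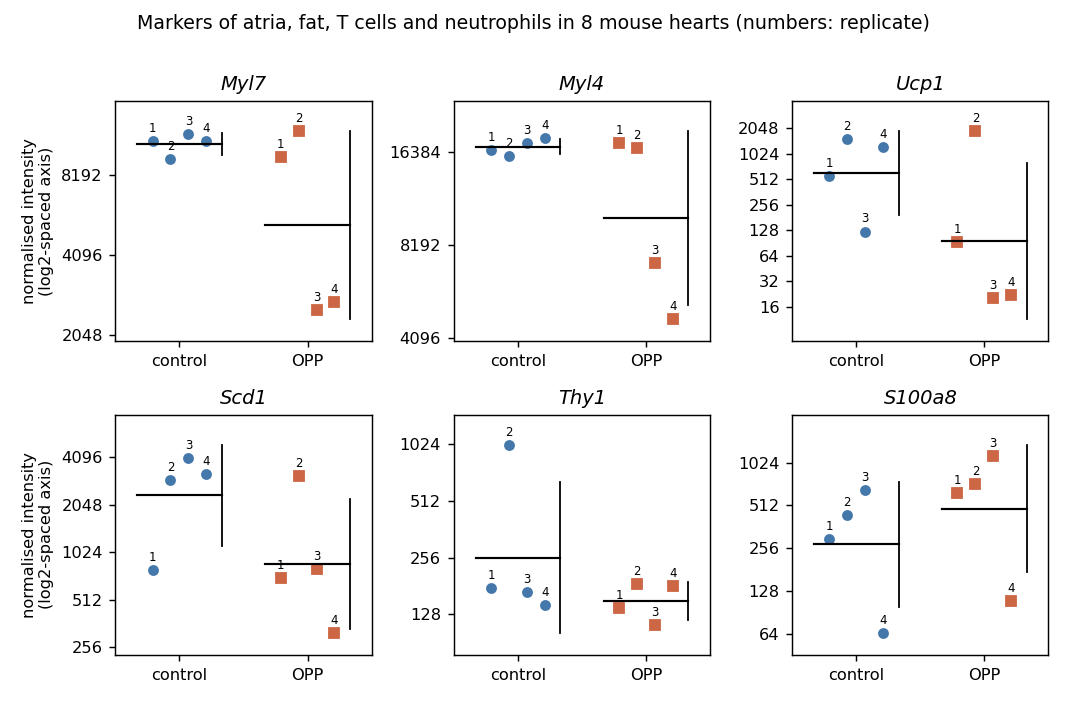
Normalised intensity (log2-spaced axis) of the atrial genes Myl7 and Myl4, the fat genes Ucp1 and Scd1, the T cell gene Thy1 and the neutrophil gene S100a8 in 4 control and 4 OPP hearts. Points carry the replicate number, the line is the mean and the bar the SD on the log2 scale, and OPP replicates 3 and 4 lie lowest in Myl7, Myl4 and Ucp1.

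Genes were ordered in 30 lists by function, and a listed gene that also belongs to an excluded group was still counted. Among the called fasting genes Angptl4 and Pnpla2 are such genes. The lists with the largest shares of called genes were those of the metabolism of phenolics and other foreign compounds (42.1%), of fasting and glucocorticoid responsive genes (35%), of the 14-3-3 family (33.3%), of metallothioneins and zinc transport (27.3%) and of cohesin and chromatin (25.7%), beside 4.55% of all genes. All of the called genes were lower in the chromatin and 14-3-3 lists and higher in the fasting list. These shares are descriptions of lists drawn up with results of these data known.

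**Figure D2:**
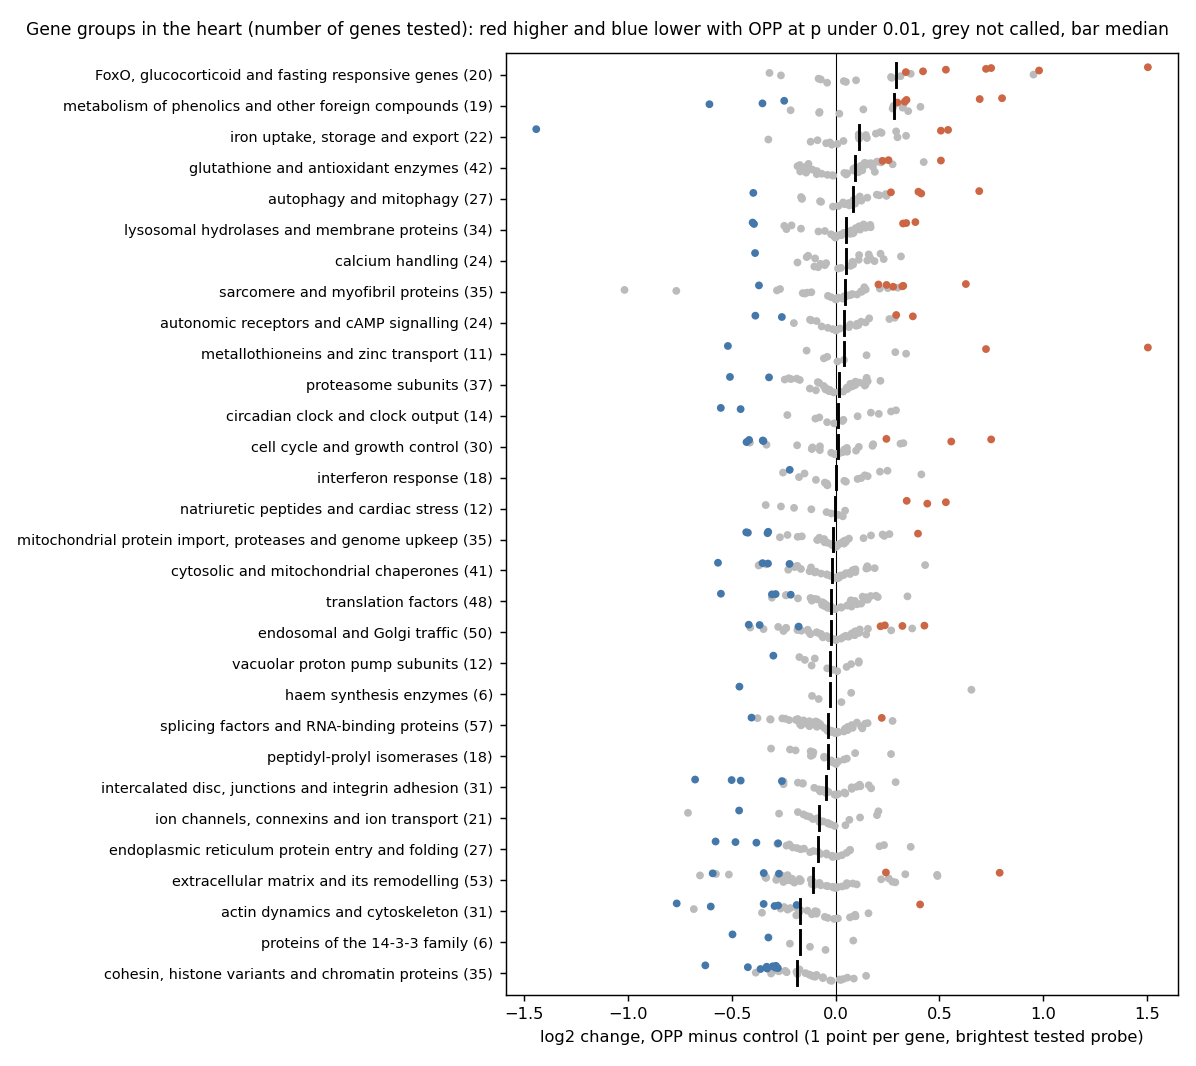
Log2 change of each tested gene (horizontal axis, OPP against control) in the 30 lists, with called genes in red (higher) and blue (lower), other genes in grey and the median of the list as a bar. The chromatin list holds 9 called genes, all lower, and the fasting list 7, all higher.

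The transferrin receptor gene was down-regulated and the ferroportin gene up-regulated. Tfrc, the transferrin receptor, measured 599, 356, 508 and 739 in control replicates 1 to 4 and 264, 256, 158 and 139 in OPP replicates 1 to 4. Every OPP heart lay below every control heart, and the change of -1.44 (SE 0.25, limma adjusted p = 0.118) was the largest fall of any called probe. Leaving out OPP replicates 3 and 4, which were the lowest, it was -1.03 (SE 0.24) and was still called. Slc40a1, the iron exporter ferroportin, measured 619, 739, 502 and 497 in the controls and 845, 721, 919 and 915 with OPP. OPP replicate 2 lay within the control range, and the change was 0.54 (SE 0.13, adjusted p = 0.146). Hmox1, haem oxygenase, which releases iron from haem, measured 241, 208, 212 and 209 in the controls and 237, 280, 434 and 315 with OPP. OPP replicate 1 lay below the highest control, and the change of 0.51 (SE 0.16, adjusted p = 0.203) lost its call with any of 5 arrays left out. Neither gene was called without OPP replicates 3 and 4, at 0.43 for Slc40a1 and 0.24 for Hmox1.

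Of 22 tested genes of iron uptake, storage and export these 3 were called, and the median of the list was 0.11, which turned negative with median scaling. The ferritin subunits did not pass the test, at 0.11 (adjusted p = 0.482) for Fth1 and 0.15 (adjusted p = 0.401) for Ftl1. Hamp, the hormone hepcidin, measured 1018, 889, 1037 and 875 in the controls and 1201, 1083, 652 and 395 with OPP. Its 2 lowest values were in OPP replicates 3 and 4, its 2 highest in the other OPP hearts, and the change was -0.32 (SE 0.28).

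In the use of iron, Alas1 and Isca2 fell. Alas1, the enzyme that opens haem synthesis, measured 4577, 4166, 5136 and 5752 in the controls and 4049, 4002, 2901 and 3326 with OPP. All OPP hearts were below all controls, with a change of -0.46 (SE 0.12, adjusted p = 0.161), and its call was lost with any of 3 arrays left out and without OPP replicates 3 and 4 (-0.27). It was the only called gene of 6 tested genes of haem synthesis. Isca2, a factor in the assembly of mitochondrial iron-sulfur clusters, measured 497, 496, 512 and 534 in the controls and 417, 367, 420 and 394 with OPP. The groups did not overlap, and the change was -0.35 (SE 0.07, adjusted p = 0.133).

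The metallothionein genes Mt1 and Mt2 rose. The 250 bases upstream of the start of Mt2 in RefSeq (GRCm38.p6, chr8:94172368-94172617, + strand) are shown because this gene had the largest rise of all called probes. Capitals mark the core of the metal response element (MRE, TGCNCNC) on either strand, with 5 matches.
Mt2: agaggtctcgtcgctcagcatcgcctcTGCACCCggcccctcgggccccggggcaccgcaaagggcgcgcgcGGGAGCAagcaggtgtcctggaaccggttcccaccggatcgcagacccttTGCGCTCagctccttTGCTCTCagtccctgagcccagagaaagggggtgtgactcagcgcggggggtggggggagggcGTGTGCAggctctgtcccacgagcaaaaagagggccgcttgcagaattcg
The same letters were found in 51% of 32851 windows of 300 bases around all gene starts, and in 9 of the 10 windows of the metallothionein and zinc transport list (90%), which held all 9 genes with a window. A match is a description of the sequence and not of a bound site.

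Mt2, metallothionein 2, measured 150, 138, 114 and 70.3 in the controls and 209, 544, 402 and 233 with OPP. The lowest OPP heart lay above the highest control, and the change was 1.5 (SE 0.31, limma adjusted p = 0.133). Mt1, metallothionein 1, was far brighter, at 8974, 8916, 7867 and 5917 in the controls and 9844, 14961, 16094 and 11690 with OPP. Here too the groups did not overlap, and the change was 0.72 (SE 0.17, adjusted p = 0.137). OPP replicate 1 was the lowest OPP heart in both genes, and control replicate 4 the lowest control. The change of Mt2 was 1.57 without OPP replicates 3 and 4, and that of Mt1 was 0.63 and missed the threshold, which left 1 gene of the list called higher and 1 lower. Both calls were lost under Student's t-test, which was not the study's test for its arrays. Slc39a10, a zinc importer of the cell surface, measured 77.3, 86.7, 80 and 82.6 in the controls and 55.4, 61, 52.6 and 59.2 with OPP. The groups were well apart, with a change of -0.52 (SE 0.10, adjusted p = 0.133). The other 8 tested genes of the list were not called, and its median was 0.04, with a sign that changed between settings.

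**Figure D3:**
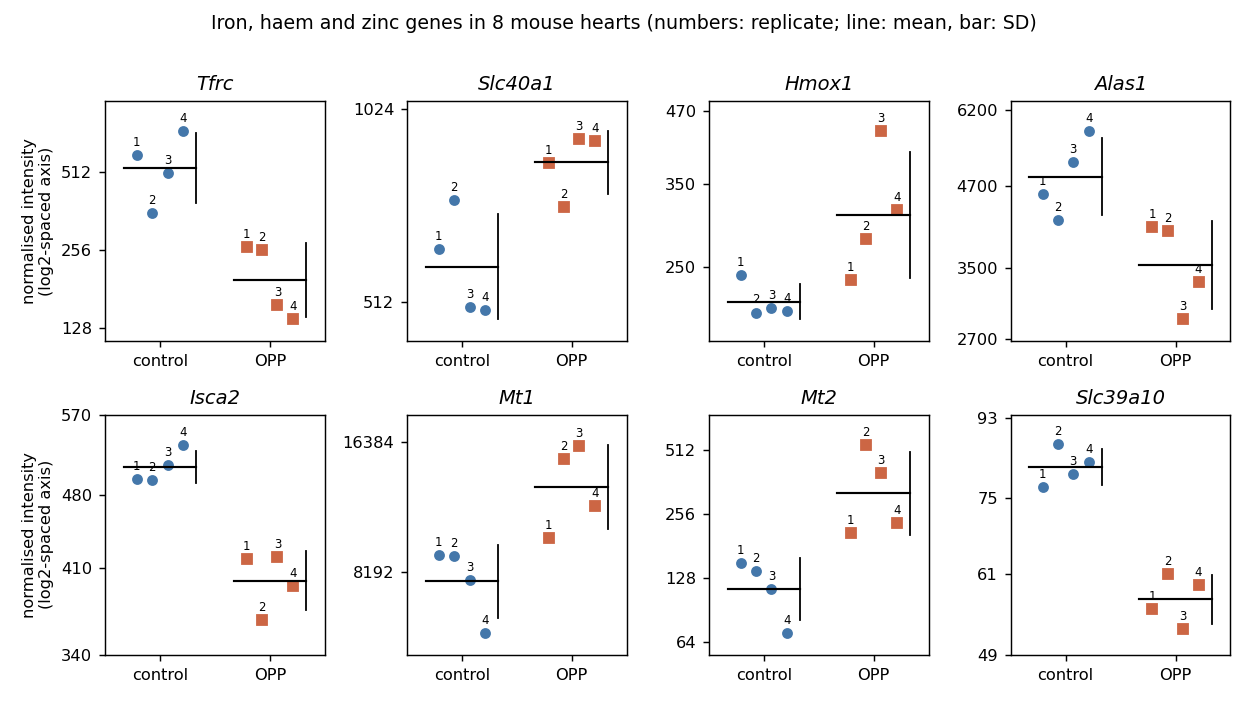
Normalised intensity (log2-spaced axis) of Tfrc, Slc40a1, Hmox1, Alas1, Isca2, Mt1, Mt2 and Slc39a10 in the 4 control and 4 OPP hearts, with replicate numbers, means and SD on the log2 scale. The groups overlap only for Slc40a1 and Hmox1. The genes shown were chosen among called probes of these same values, and the groups did not overlap in 7.97% of all probes.

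Among genes that respond to fasting, FoxO factors and glucocorticoids, 7 of 20 tested genes were called, all higher, with a median change of 0.29. The 7 included Mt1 and Mt2, and Angptl4 and Pnpla2, which are also PPAR alpha targets. Of the other 3, Cdkn1a, the cell cycle inhibitor p21, measured 138, 171, 168 and 171 in the controls and 236, 266, 392 and 220 with OPP. The groups did not overlap, and the change of 0.75 (SE 0.16, adjusted p = 0.133) was 0.63 without OPP replicates 3 and 4. Cebpb, a transcription factor of acute responses, measured 559, 630, 684 and 523 in the controls and 656, 904, 930 and 997 with OPP. OPP replicate 1 lay within the control range, and the change was 0.53 (SE 0.13, adjusted p = 0.147). Errfi1, a feedback inhibitor of the epidermal growth factor receptor, measured 317, 423, 448 and 416 in the controls and 544, 488, 606 and 498 with OPP, without overlap (0.42, SE 0.11, adjusted p = 0.166). Its call was lost with either of 2 arrays left out. The list had a median of 0.08 and 2 called genes without OPP replicates 3 and 4.

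Of 30 tested genes of the cell cycle and growth control, 3 rose and 4 fell. Beside Cdkn1a, Mapkapk2, a kinase downstream of p38, rose by 0.24 (SE 0.05). Map2k1 (MEK1) fell by 0.42 (SE 0.10), Ccnd2 (cyclin D2) fell by 0.35 (SE 0.09) and Cdc26, a subunit of the anaphase promoting complex, fell by 0.35 (SE 0.09). None of the falls was called without OPP replicates 3 and 4, where 2 genes of the list rose and 0 fell. On all 8 arrays the groups did not overlap for any of these 5 genes, as they did not for 7.81% of all genes and 7.97% of all probes.

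Enzymes that alter phenolics and other foreign compounds changed in both directions, with 5 of 19 tested genes higher and 3 lower and a median of 0.28. Hsd17b11, a dehydrogenase of lipid droplets that acts on steroids and retinoids, measured 146, 207, 177 and 160 in the controls and 257, 245, 409 and 306 with OPP at its brightest probe. OPP was above control in every heart, with a change of 0.80 (SE 0.16, adjusted p = 0.133), and another probe of the gene rose by 0.92 (SE 0.15). Xdh, xanthine dehydrogenase, measured 329, 305, 274 and 183 in the controls and 338, 489, 470 and 442 with OPP. The groups were separated by the small gap between control replicate 1 and OPP replicate 1, and the change was 0.69 (SE 0.18, adjusted p = 0.152). Maob, the monoamine oxidase of amines such as phenethylamine, measured 488, 399, 456 and 382 in the controls and 532, 502, 562 and 581 with OPP, again without overlap (0.34, SE 0.09, adjusted p = 0.159). Aldh2, the mitochondrial aldehyde dehydrogenase, rose by 0.30 (SE 0.08), and Dhrs4, a carbonyl reductase, rose by 0.33 (SE 0.09). The calls of Maob and Dhrs4 were lost with any of 3 and 4 arrays left out. The genes that fell were Ddt (-0.25), Ephx1, the microsomal epoxide hydrolase (-0.35), and Tpmt, a methyltransferase of thiol drugs (-0.61). Only 1 gene of the list was called higher and 1 lower without OPP replicates 3 and 4, with a median of 0.16.

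Among 42 tested genes of glutathione and antioxidant enzymes 3 were called, all higher, beside 1.83% of all genes, with a median of 0.09 that turned negative with median scaling. They were Hmox1 and the glutathione transferases Gstm6 and Gstm5. Gstm6 measured 1187, 1281, 1223 and 1233 in the controls and 1517, 1379, 1488 and 1492 with OPP. The values were tight in both groups and did not overlap (0.25, SE 0.06, adjusted p = 0.133). Gstm5 measured 1218, 1220, 1071 and 1173 in the controls and 1274, 1337, 1520 and 1351 with OPP (0.23, SE 0.07, adjusted p = 0.211), and its call was lost with any of 7 arrays left out. Of the list 1 gene was called without OPP replicates 3 and 4, higher. Gclm, which sets the rate of glutathione synthesis with its catalytic partner, was not called (0.42, adjusted p = 0.244), nor was Nqo1, the quinone reductase (0.27, adjusted p = 0.409). The antioxidant response element (ARE, TGACNNNGC) on either strand was found in 12.4% of all windows and in 8 of the 59 windows of the listed genes (13.6%), which belonged to 8 of 37 genes. Gstm5 was among them, and the 250 bases upstream of its start (GRCm38.p6, chr3:107895604-107895853, + strand) are given with the match in capitals.
Gstm5: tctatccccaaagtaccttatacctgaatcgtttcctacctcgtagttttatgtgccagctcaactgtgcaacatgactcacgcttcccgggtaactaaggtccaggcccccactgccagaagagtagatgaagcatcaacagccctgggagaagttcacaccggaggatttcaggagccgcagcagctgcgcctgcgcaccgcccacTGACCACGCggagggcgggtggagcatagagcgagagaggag

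The sarcomere and myofibril list, which also held Tacc2, had 6 of 35 tested genes higher and 1 lower. Its median of 0.05 turned negative with median scaling. Myh6, the alpha myosin heavy chain of the adult mouse ventricle, measured 12492, 12309, 10985 and 12052 in the controls and 13405, 14082, 14082 and 15124 with OPP. All OPP hearts were above all controls, with a change of 0.25 (SE 0.06, adjusted p = 0.146), and without OPP replicates 3 and 4 it was 0.20 and missed the threshold. Des, desmin of the intermediate filaments, measured 847, 800, 863 and 692 in the controls and 941, 930, 941 and 1214 with OPP. The groups did not overlap, but the call (0.33, SE 0.10, adjusted p = 0.208) was lost with any of 6 arrays left out. Tacc2, a coiled-coil protein known from centrosomes, measured 4529, 4056, 4337 and 3357 in the controls and 5464, 5306, 8095 and 6481 with OPP. The highest values were in OPP replicates 3 and 4, and the change of 0.63 (SE 0.13, adjusted p = 0.133) was 0.42 without them.

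Tnnc1, cardiac troponin C, measured 32841, 31171, 30723 and 31988 in the controls and 36541 in each OPP heart. Its probe was the brightest on every OPP array, so that quantile normalisation gave it the same value on all of them and the spread of its OPP values was not measured. Its change was 0.21 on that scale. Trim54, a ubiquitin ligase of muscle, rose by 0.32 (SE 0.10) and Smyd2, a lysine methyltransferase of the sarcomere, by 0.28 (SE 0.09). Fhl2, a LIM protein that binds titin and signalling proteins, fell. It measured 14747, 13271, 12678 and 15678 in the controls and 11617, 11228, 9245 and 11617 with OPP, without overlap (-0.37, SE 0.09, adjusted p = 0.146). Fhl2 missed the threshold at -0.30 without OPP replicates 3 and 4. In that fit 2 genes of the list were called higher, Tacc2 and Tnnc1, and 1 lower. The low atrial levels of those hearts stand beside these values, and their part was not tested.

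**Figure D4:**
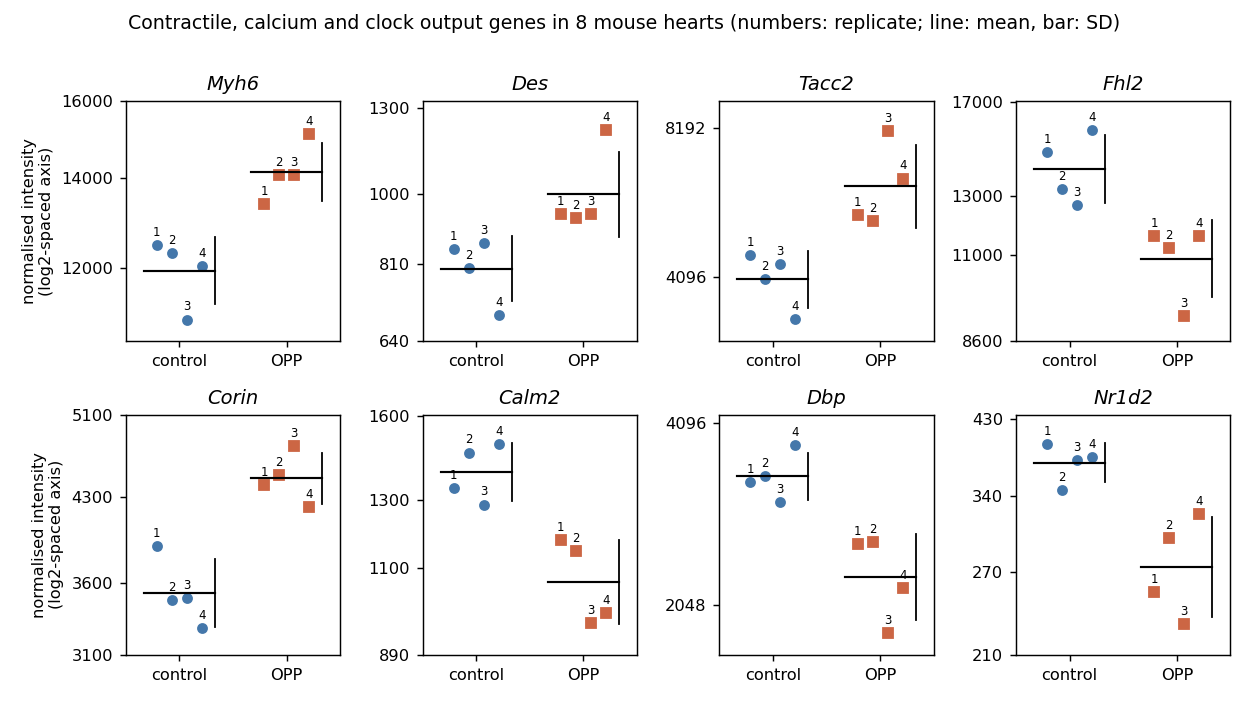
Normalised intensity (log2-spaced axis) of Myh6, Des, Tacc2, Fhl2, Corin, Calm2, Dbp and Nr1d2 in the 4 control and 4 OPP hearts, with replicate numbers, means and SD on the log2 scale. The groups do not overlap for any of the 8 genes, with Myh6, Des, Tacc2 and Corin higher in OPP hearts and the others lower. The genes were chosen among called probes of these same values, so that their separation is no further support. Of all probes 7.97% did not overlap.

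Of 24 tested calcium genes (4.17% called, beside 4.55% of all genes), Calm2, which encodes calmodulin, was the only call and fell. It measured 1340, 1461, 1287 and 1492 in the controls and 1180, 1148, 963 and 986 with OPP, without overlap (-0.39, SE 0.08, adjusted p = 0.133), and without OPP replicates 3 and 4 it was -0.26 and not called. Of 21 tested channel and transport genes (4.76% called), Vdac3, a channel of the outer mitochondrial membrane, was the only call and fell by 0.46 (SE 0.10), a call that was lost without OPP replicates 3 and 4. Calr3, a calreticulin, measured 308, 273, 274 and 274 in the controls and 374, 357, 380 and 387 with OPP at a probe that was clearly apart between the groups (0.41, SE 0.07). Its brightest probe was not called (0.22, adjusted p = 0.335).

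Among 24 tested genes of autonomic receptors and cAMP signalling, 2 rose and 2 fell. Akap1, which anchors protein kinase A at mitochondria, rose by 0.37 (SE 0.10), whereas Prkar2a, a regulatory subunit of that kinase, fell by 0.39 (SE 0.09). Ppp1r11, an inhibitor of protein phosphatase 1, measured 1076, 1083, 1099 and 1082 in the controls and 1220, 1330, 1431 and 1342 with OPP. The controls were nearly identical and every OPP heart was above them (0.29, SE 0.06, adjusted p = 0.133). Ppp1cc, a catalytic subunit of the same phosphatase, fell by 0.26 (SE 0.08), a call lost with any of 7 arrays left out. Only 1 gene of this list was called without OPP replicates 3 and 4, higher.

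Corin, the protease of the heart that activates atrial natriuretic peptide, rose. It measured 3888, 3476, 3485 and 3279 in the controls and 4408, 4503, 4776 and 4209 with OPP. The groups were apart with a change of 0.34 (SE 0.07, adjusted p = 0.133), and the gene was still called without OPP replicates 3 and 4. Together with Cebpb and Osmr, the receptor of oncostatin M (0.44, SE 0.12, a call lost with any of 3 arrays left out), it made up the 3 called genes of 12 tested genes of natriuretic peptides and cardiac stress, whose median was close to that of all genes. Nppb, the brain natriuretic peptide, was not called (-0.20, adjusted p = 0.465), and neither were Ankrd1, Myh7 and Acta1, genes of the stressed heart. The list had 1 gene called higher and 1 lower without OPP replicates 3 and 4.

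Of the circadian clock, Dbp and Nr1d2 were down-regulated. Dbp, a transcription factor with a strong daily rhythm, measured 3268, 3349, 3036 and 3770 in the controls and 2583, 2604, 1843 and 2188 with OPP. The groups did not overlap and OPP replicates 3 and 4 were lowest, with a change of -0.55 (SE 0.11, adjusted p = 0.133) and of -0.37 without those arrays. Nr1d2 (Rev-erb beta), a repressor in the clock, measured 399, 347, 380 and 383 in the controls and 254, 300, 231 and 322 with OPP, without overlap (-0.46, SE 0.11, adjusted p = 0.137), while another probe of the gene was not called (0.13, adjusted p = 0.794). The other 12 of the 14 tested clock genes were not called, among them Nfil3 (0.29, adjusted p = 0.295), Cry2 (0.27, adjusted p = 0.341), Per2 (-0.08) and Nr1d1 (-0.10). The same 2 genes of the list were called without OPP replicates 3 and 4. The E-box CACGTG was found in 7.15% of all windows and in 3 of the 18 windows of 11 listed genes (16.7%), those of Per1 and Tef.

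The called genes of chromatin were all down-regulated, with 9 of 35 tested genes lower, 0 higher and a median of -0.18. In all 29 of the 35 had a negative change, and 14 were lower at an unadjusted p under 0.05. Rad21, a subunit of the cohesin ring that holds sister chromatids and DNA loops, measured 202, 220, 225 and 276 in the controls and 156, 131, 161 and 148 with OPP. The groups were clearly apart, with a change of -0.63 (SE 0.11, limma adjusted p = 0.118), which was -0.68 without OPP replicates 3 and 4. H3f3a, histone H3.3, measured 3803, 3821, 4056 and 4249 in the controls and 3431, 3368, 3179 and 3078 with OPP. It was lower in every OPP heart (-0.29, SE 0.06, adjusted p = 0.133). Smarca5, the motor of ISWI remodelling complexes, measured 247, 243, 230 and 236 in the controls and 203, 185, 205 and 184 with OPP, without overlap (-0.30, SE 0.08, adjusted p = 0.152). The others were Top2b, DNA topoisomerase II beta (-0.33), Ptma, prothymosin alpha (-0.42), the nucleosome binding protein Hmgn2 (-0.36), Morf4l1 (-0.33), Anp32a (-0.29) and Ing4 (-0.28). Top2b and Ptma each lost their call with either of 2 arrays left out. The calls of Hmgn2, Morf4l1, Anp32a and Ing4 were not followed in this way. Stag2, another cohesin subunit, was not called (-0.29, adjusted p = 0.243). Without OPP replicates 3 and 4 the median was -0.17 and 3 genes were called, all lower.

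Of 57 tested splicing factors and RNA-binding proteins only 2 were called (3.51%, beside 4.55% of all genes). Cstf2, of the cleavage machinery of the 3′ end, fell by 0.40 (SE 0.09) and Sf3b2, of the U2 particle, rose by 0.22 (SE 0.06), a call lost with any of 4 arrays left out and without OPP replicates 3 and 4. The housekeeping genes that the study used for qRT-PCR were not called, at 0.08 for Srsf9 (adjusted p = 0.636), -0.06 for Guk1 (adjusted p = 0.727) and -0.10 for Hnrnpab (adjusted p = 0.533).

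Rack1, a scaffold of the small ribosomal subunit, had the smallest p of all. It measured 515, 578, 581 and 582 in the controls and 415, 395, 351 and 360 with OPP, without overlap (-0.57, SE 0.08, limma adjusted p = 0.0751). Tpt1, a translationally controlled protein that binds calcium, measured 415, 551, 565 and 546 in the controls and 357, 328, 375 and 348 with OPP. Control replicate 1 was nearest to the OPP hearts, all of which were lower (-0.55, SE 0.10, adjusted p = 0.133). Of 48 tested translation factors, 4 fell and 0 rose, beside 2.72% of all genes lower, and the median was -0.02. They included Eif3e (-0.29, SE 0.07), Eif4g2 (-0.31, SE 0.08) and Bzw1 (-0.22, SE 0.06), whose call was lost with any of 5 arrays left out. Only 1 gene of this list was called without OPP replicates 3 and 4, lower.

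Of 27 tested genes of protein entry into and folding in the endoplasmic reticulum, 4 fell, 0 rose and 19 had a negative change. Selenof, a selenoprotein bound to the folding sensor of glycoproteins, measured 386, 350, 406 and 401 in the controls and 281, 272, 226 and 258 with OPP at its brightest probe, without overlap (-0.58, SE 0.09, adjusted p = 0.103). Its other probes were not called, at -0.04 and -0.26. Spcs2, of the signal peptidase, fell by 0.48 (SE 0.12), Bcap31, a sorting protein, by 0.38 (SE 0.10) and Srp19, of the signal recognition particle, by 0.28 (SE 0.07). Hspa5, the main chaperone of this compartment, was not called (-0.28, adjusted p = 0.241). The list kept 1 call, lower, without OPP replicates 3 and 4.

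Of 41 tested cytosolic and mitochondrial chaperones, 4 fell and 0 rose (9.76% called, beside 4.55% of all genes), with a median of -0.02. Dnajc15, a cochaperone of mitochondrial import, measured 441, 415, 496 and 531 in the controls and 364, 341, 317 and 255 with OPP. OPP replicate 4 was lowest and the groups did not overlap (-0.57, SE 0.12, adjusted p = 0.133). Cct5, of the chaperonin that folds actin and tubulin, fell by 0.35 (SE 0.09), Naca, of the complex that guards nascent chains, by 0.32 (SE 0.08) and Hspe1, the mitochondrial cochaperonin, by 0.22 (SE 0.07), a call lost with any of 5 arrays left out. Of the 4 falls in the list, 1 remained without OPP replicates 3 and 4. No gene was called among 18 tested peptidyl-prolyl isomerases, and the smallest p values were those of Fkbp7 (-0.31, adjusted p = 0.22) and Ppih (-0.22, adjusted p = 0.236).

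The 14-3-3 proteins bind phosphorylated partners in many signalling chains, and 2 of the 6 tested genes fell. Ywhaz measured 166, 174, 170 and 180 in the controls and 144, 130, 99.4 and 120 with OPP, without overlap (-0.50, SE 0.11, adjusted p = 0.137). Ywhae fell by 0.32 (SE 0.08) and was not called without OPP replicates 3 and 4. Of 37 tested proteasome subunits, Psma5, of the outer ring of the core, fell by 0.51 (SE 0.12) and Psmd6, of the regulatory lid, by 0.32 (SE 0.08), a share of 5.41% beside 4.55% of all genes, and neither was called without those arrays.

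Autophagy genes, in contrast, were mostly higher among those called, with 4 of 27 higher and 1 lower and a median of 0.09 that turned negative with median scaling. With OPP replicates 3 and 4 left out, 0 genes of the list were called and its median was 0.03. Bcl2l1 (Bcl-xL), which restrains apoptosis and beclin, measured 67.5, 63.1, 60.7 and 44.2 in the controls and 77.5, 96.9, 95.1 and 109 with OPP. It was near the background, detected in 3 of 4 controls, and the groups did not overlap (0.69, SE 0.15, adjusted p = 0.133). Pink1, the kinase that marks damaged mitochondria, measured 1738, 1624, 1634 and 1582 in the controls and 1831, 1843, 2052 and 2204 with OPP (0.27, SE 0.07, adjusted p = 0.161), while another probe was not called (0.33, adjusted p = 0.252). The highest values were in OPP replicates 3 and 4, and without them the change was 0.16. Gabarapl1, of the family that coats autophagosomes, rose by 0.40 (SE 0.10) and Sqstm1 (p62), which brings cargo to them, by 0.41 (SE 0.13), with 0.23 and 0.16 without OPP replicates 3 and 4. Gabarapl2, of the same family as Gabarapl1, measured 406, 442, 544 and 493 in the controls and 402, 309, 359 and 361 with OPP. It fell by 0.40 (SE 0.11, adjusted p = 0.166), with only a small gap between control replicate 1 and OPP replicate 1. The calls of Sqstm1 and Gabarapl2 were lost with any of 6 and 3 arrays left out.

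Of 34 tested lysosomal genes 3 rose and 2 fell, and without OPP replicates 3 and 4 the counts were 2 and 0. Igf2r, the receptor that carries enzymes to lysosomes by their mannose 6-phosphate, measured 529, 452, 474 and 491 in the controls and 627, 610, 607 and 697 with OPP, without overlap (0.38, SE 0.07, adjusted p = 0.133). Man2b1, a lysosomal mannosidase, rose by 0.34 (SE 0.09) and Lgmn, the protease legumain, by 0.32 (SE 0.10), calls that were lost with any of 2 and 5 arrays left out. Laptm4b, a membrane protein of late endosomes, fell by 0.40 (SE 0.09), as did Sumf1, which activates sulfatases, by 0.39 (SE 0.12), with overlap between the groups and a call lost with any of 6 arrays left out. Of 12 tested subunits of the vacuolar proton pump only Atp6v1d was called (-0.30), a share of 8.33% beside 4.55% of all genes. Without the same 2 arrays Atp6v1d was not called. Tecpr1, which acts at lysosomes and autophagosomes, measured 59.1, 65.2, 74.5 and 70.6 in the controls and 99.2, 91.6, 112 and 126 with OPP. Its values were low but apart (0.66, SE 0.13, adjusted p = 0.133).

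Traffic genes moved in both directions, with 4 of 50 higher and 3 lower and a median of -0.02, while 0 were called without OPP replicates 3 and 4. Ehd1 (0.43, SE 0.12) and Rbsn (0.32, SE 0.09), of endosome recycling, and Sar1a (0.24, SE 0.07), of export from the endoplasmic reticulum, rose, with calls that were lost with any of 5, 6 and 4 arrays left out. Vps4b, the ATPase that releases the ESCRT machinery, fell by 0.42 (SE 0.10) and Epn2, an epsin of clathrin coats, by 0.36 (SE 0.09), while the other 3 probes of Epn2 stood at -0.40, -0.22 and 0.01 and were not called. Of 35 tested genes of mitochondrial import and genome upkeep, 4 fell and 1 rose, and 0 were called without OPP replicates 3 and 4. The receptor Tomm22 (-0.32), the initiation factor Mtif2 (-0.43), Chchd3 of the cristae (-0.42) and the protease Yme1l1 (-0.33) fell, and Polg, the mitochondrial DNA polymerase, rose by 0.40 (SE 0.12). The calls of these 5 genes were each lost with any of at least 4 arrays left out.

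Genes of the actin cytoskeleton that were called were mostly lower, with 6 of 31 tested genes lower and 1 higher, a median of -0.17 and 24 negative changes. Dstn, destrin, which severs actin filaments, measured 92.6, 97.7, 122 and 131 in the controls and 72.9, 58.4, 63.2 and 64.7 with OPP. The groups did not overlap, with a change of -0.76 (SE 0.13, adjusted p = 0.118) and of -0.75 without OPP replicates 3 and 4. Sptbn1, a spectrin beneath the membrane, measured 826, 903, 707 and 739 in the controls and 650, 596, 601 and 641 with OPP. Every OPP heart was lower (-0.35, SE 0.08, adjusted p = 0.146), though another probe of the gene was not called (0.14, adjusted p = 0.701). Tuba1a, a tubulin (-0.60), Wipf1 (-0.29), the bundling protein Pls3 (-0.28) and Anxa2 (-0.19) fell as well. The calls of Pls3 and Anxa2 were lost with any of 3 and 4 arrays left out, and those of Tuba1a and Wipf1 were not followed. Twf2, a twinfilin that binds actin monomers, rose by 0.41 (SE 0.11). Gsn, gelsolin, was not called (-0.68, adjusted p = 0.308). Without OPP replicates 3 and 4 the median of the list was -0.09 and 1 gene was called.

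Of 31 tested genes of the intercalated disc, junctions and integrin adhesion, 4 fell and 0 rose (12.9% called, beside 4.55% of all genes). Lims1 (PINCH), an adaptor at integrins, measured 253, 268, 351 and 382 in the controls and 233, 164, 188 and 196 with OPP, without overlap (-0.68, SE 0.15, adjusted p = 0.133), and changed by -0.66 without OPP replicates 3 and 4. Perp, of desmosomes, fell by 0.50 (SE 0.13), Jam3 by 0.46 (SE 0.12) and Itgbl1 by 0.26 (SE 0.08), the last a call lost with any of 6 arrays left out. Of these genes only Lims1 was called without OPP replicates 3 and 4.

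In the extracellular matrix 3 of 53 tested genes fell and 2 rose, and 36 had a negative change, with a median of -0.11. The called share was 9.43%, beside 4.55% of all genes. Sparc, a matrix protein of collagen assembly, measured 1722, 1492, 2179 and 2470 in the controls and 1318, 1351, 980 and 1539 with OPP. OPP replicate 4 lay above the lowest control (-0.59, SE 0.17, adjusted p = 0.181), and the call was lost with any of 3 arrays left out. Its relative Sparcl1 fell by 0.35 (SE 0.10) and Pcolce2, an enhancer of procollagen processing, by 0.27 (SE 0.09), calls that were lost with any of 4 and 7 arrays left out. Another probe of Pcolce2 was not called (-0.18, adjusted p = 0.479). The fibrillar collagen chains Col1a2 (-0.65, adjusted p = 0.268) and Col3a1 (-0.58, adjusted p = 0.237) were not called. Timp4, the inhibitor of metalloproteinases most abundant in the heart, measured 249, 290, 213 and 150 in the controls and 341, 399, 314 and 483 with OPP. All OPP hearts were above all controls (0.79, SE 0.19, adjusted p = 0.147). It was 0.75 without OPP replicates 3 and 4 and missed the threshold, and the list then had 1 gene called higher and 2 lower. Gpc1, a cell surface proteoglycan, rose by 0.24 (SE 0.06). Of 18 tested genes of the interferon response (5.56% called) only Ifngr2, a chain of the interferon gamma receptor, was called (-0.22, SE 0.06). Another of its probes was not (-0.17, adjusted p = 0.617). The call of Ifngr2 was lost with any of 3 arrays left out and without OPP replicates 3 and 4.

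**Figure D5:**
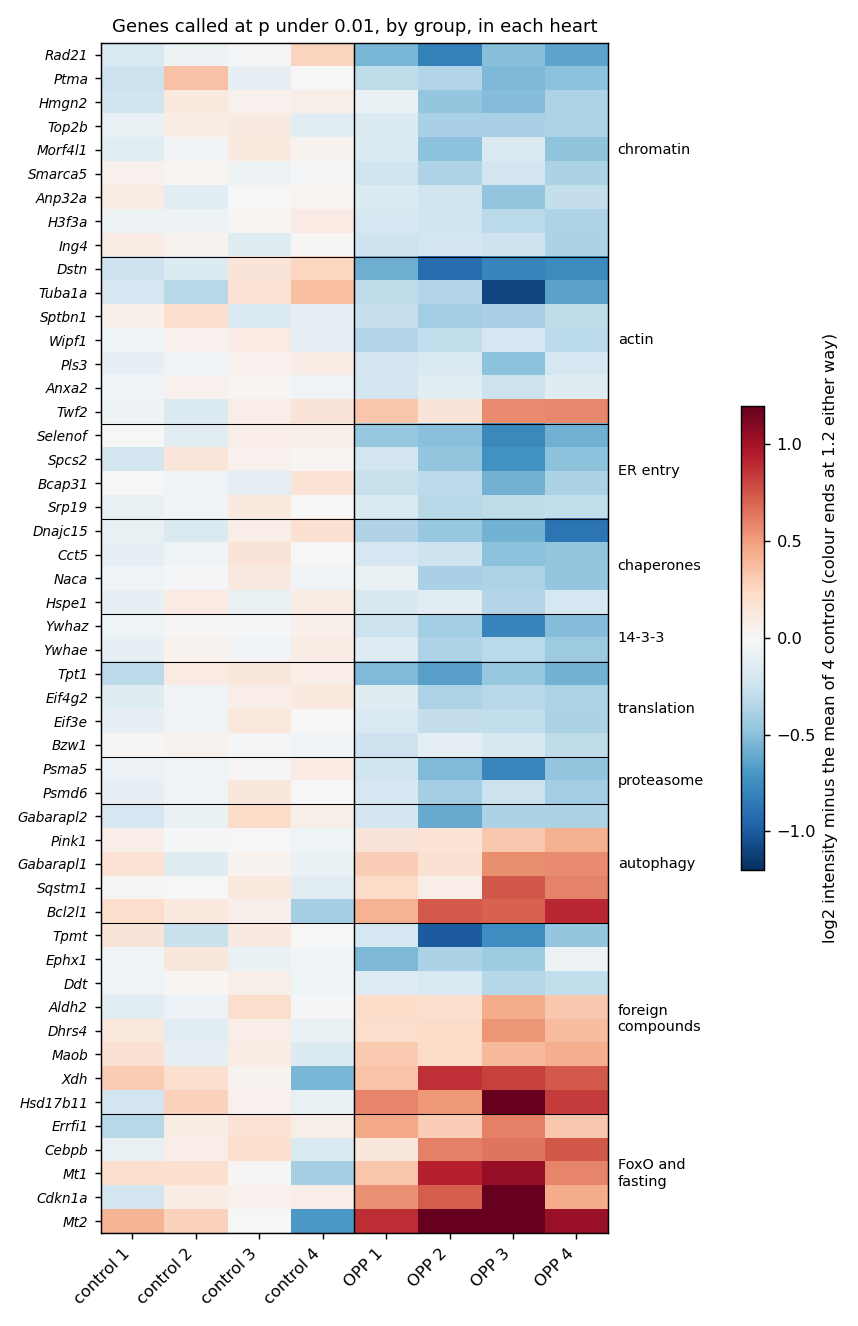
Log2 value of 50 called genes (rows, in 10 of the lists) in each of the 8 hearts (columns) minus the mean of the control hearts, red above and blue below, with the colour limited at 1.2. Chromatin genes are below the control mean in OPP hearts, and Mt1, Mt2 and Cdkn1a are above it.

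Several of the clearest changes were in genes of less settled role in the heart. Abhd1, a hydrolase, measured 319, 269, 301 and 271 in the controls and 476, 410, 443 and 605 with OPP, without overlap (0.73, SE 0.12, adjusted p = 0.118), and a brighter probe rose by 0.41 (SE 0.11). Apod, a carrier of small lipids known for its rise in stress and ageing, measured 168, 152, 130 and 121 in the controls and 197, 241, 258 and 201 with OPP, again without overlap (0.65, SE 0.13, adjusted p = 0.133). Rnf10 (0.34) and Vwa8 (0.38) rose. Tspan3 fell by 0.60 (SE 0.10) at a dimmer probe, while its brightest probe stood at -0.09. Among probes that passed the filter only through the group where they were high, Chrna2, a nicotinic receptor subunit, measured 37.6, 47.4, 48 and 35.8 in the controls, of which 2 of 4 were detected, and 72.6, 59, 74.2 and 66.8 with OPP. Zbed3, a zinc finger protein of Wnt signalling, measured 70.1, 63.9, 79.4 and 77.3 in the controls and 40.7, 45.5, 35.2 and 52.9 with OPP, of which 2 of 4 were detected. The filter made a difference likely in such probes, and their exact size is not given. Pcdhb17, a protocadherin, measured 62.1, 51.4, 54.6 and 68.7 in the controls and was detected in no OPP heart, where it was at least 1.32-fold lower. That bound sets the mean of the controls against the lowest signal that was detected on each OPP array, or the probe's own value where higher.

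The response of the heart was then set against that of the liver (4 control and 3 OPP arrays) and of the spleen (4 and 4 arrays) by an interaction term in a limma fit of all 23 arrays. It was not labelled which organs came from the same mouse. Against the liver 2 of 5584 probes differed at an adjusted p under 0.05 (0.0358%), with 252 at an unadjusted p under 0.01. Slc38a2, an amino acid transporter, changed by -0.02 in the heart and -1.49 in the liver (difference 1.47, SE 0.21, limma adjusted p = 0.00274). Ei24, a protein of the endoplasmic reticulum, changed by 0.02 and 0.61 (difference -0.59, SE 0.11, limma adjusted p = 0.0479). Against the spleen 0 of 7209 probes differed at an adjusted p under 0.05 in limma, with 52 at an unadjusted p under 0.01 and 234 under 0.05. The called heart genes are therefore not shown to be particular to the heart.

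Side by side, Tfrc changed by -1.44 in the heart, -0.84 (SE 0.60) in the liver and 0.11 (SE 0.17) in the spleen. Mt2 changed by 1.5 in the heart, -0.64 (SE 1.27) in the liver and -0.09 (SE 0.28) in the spleen, and the wide error in the liver leaves little to compare. Hsd17b11 changed by 0.92 in the heart and 0.72 (SE 0.20) in the liver at the same probe, with a difference of 0.19 (SE 0.25). Dbp changed by -0.55 in the heart, -0.14 (SE 0.30) in the liver and -0.73 (SE 0.34) in the spleen. The limma adjusted p of each of these differences was above 0.05.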

How the data were processed

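Gene expression was measured on Illumina MouseRef-8 arrays. The authors exported bead intensity values with BeadStudio (version 1.5.1.3, from the submitters' notes on processing), and the non-normalised intensity deposited for a probe still held the background. The detection p-value deposited beside it came from the negative controls. The authors' own normalised values (rank invariant, floor of 10) served as an alternative. The deposited heart intensities were background corrected with limma's nec (detection p, offset of 16), quantile normalised over the 8 hearts and put on the log2 scale, and tested with limma 3.58.1 in R 4.3.3 (lmFit, eBayes with a trended variance). The limma fit of the heart and the fit of heart against liver were tried on simulated log2 values with known changes. The background correction and the normalisation were not. The platform table gave 1 symbol for 19398 probes, an additional file of the paper named 118 more, and 4532 stayed unnamed. That file holds the genes that the study had called changed in liver, spleen or heart. A probe without a platform symbol was thus named only where the study had called it on these same arrays. Among the probes named in this way were those of Rack1, Abhd1, Tecpr1, Vwa8 and Isca2, so that their place here is no separate support for the study's calls. Each group is 4 mice, so that p-values measure the spread between these mice, and the number of arrays limits the precision. An exact permutation test of 4 against 4 has a smallest p of 0.0286. Replicates were taken as independent, and 0 pairs of arrays held identical values.

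The text names the 12 probes of smallest p in each direction outside the excluded groups, of each list up to 5 genes of smallest p among those called (otherwise 2), Rad21 and the qRT-PCR housekeeping genes, and other probes of these genes whose sign or call differed. Further listed genes, markers, and the genes differing between organs were chosen after seeing their values. For further listed genes it was not followed whether single calls held with an array left out. Some results for a gene that the rule names are not reported here. The members and lists were chosen with earlier results of these data known. Promoter windows, 250 bases before to 50 after a gene's start, came from RefSeq. Alternatives were the authors' values, median scaling, another offset, no or a stricter detection filter, and Student's t-test. Others were array weights, no trended variance, all organs in 1 fit, the replicate block and each array left out. Median scaling over tested probes and the fit without OPP replicates 3 and 4 were added after seeing the data.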

Additional observations from a re-analysis of the deposited data

Results flagged for a closer look

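In some groups of 4 hearts a single heart lay so far from the other 3 that its gap to the nearest took up more of the group's whole range than Dixon's 95% critical value allows. Chance flags about 1 in 20 groups, and the flagged probes come from 129 named probes, each measured in both groups. The flags are thus not shown to exceed chance, and the causes were not tested. Control replicate 1 was the separate heart in 5 genes, being highest in Calr3 (308, others 273 to 274) and Hmox1 (241, others 208 to 212) and lowest in Rack1 (515, others 578 to 582), Tpt1 (415, others 546 to 565) and Cdkn1a (138, others 168 to 171). In Rack1, Tpt1, Calr3 and Hmox1 this control heart was also the control nearest to the OPP hearts, and in Cdkn1a it was the farthest from them. OPP replicate 1 was the separate heart in 4 genes, all lower with OPP, and was in each the OPP heart nearest to the controls. Its values were 1396 in Eif4g2 (others 1192 to 1222), 235 in Top2b (others 202 to 205), 330 in Perp (others 240 to 249) and 165 in Cdc26 (others 138 to 141). OPP replicate 3, a heart low in the atrial genes, stood apart at 9245 in Fhl2 (others 11228 to 11617) and at 252 in Ppih (others 277 to 279). OPP replicate 4, the other such heart, measured 1214 in Des (others 930 to 941). Control replicate 3 measured 2658 in Naca (others 2390 to 2431).

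The change with OPP differed between heart and liver by the interaction test in limma for Slc38a2, with a difference of 1.47 (heart minus liver), and for Ei24, with a difference of -0.59.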

How the results depend on the processing

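The number of called probes at an unadjusted p under 0.01 was 423, against 1061 with median scaling, 234 with all organs in 1 fit and 122 without OPP replicates 3 and 4. With 1 array left out it was 225 to 497, with 225 without control replicate 4 and 255 without OPP replicate 3. At an adjusted p under 0.05 the count was 0, against 554 with median scaling, 17 with all organs in 1 fit, 1 without a filter on detection and 1 with detection on all 4 arrays of a group, and 0 to 1 with an array left out. The share of called probes that were higher was 41.4%, against 2.73% with median scaling, 34.6% with all organs in 1 fit and 35% with median scaling over tested probes, which was added after seeing the data, and 33.2% to 47.1% with an array left out. Of the listed genes 110 were called, against 194 with median scaling, 65 under Student's t-test and 53 with all organs in 1 fit. Their count was 30 without OPP replicates 3 and 4, and 66 to 114 with an array left out. Of the named probes 109 were called, against 66 under the t-test, 51 with all organs in 1 fit and 40 without OPP replicates 3 and 4, and 78 to 101 with an array left out. In all 29 named probes were called under every alternative but those added after seeing the data, among them Tfrc, Slc39a10, Isca2, Rad21, Smarca5, Dstn, Lims1, Nr1d2, Bcl2l1 and Hsd17b11, and 68 were called with each array left out. The calls of Mt1 and Mt2 were lost under the t-test and with all organs in 1 fit, and that of Slc40a1 under the t-test and median scaling. The causes were not tested.

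Heart and liver differed in 2 probes, against 1 with the authors' values, 4 with all organs normalised together, 0 with a variance for each organ and 9 without liver control replicates 3 and 4, and in 1 to 2 with a heart array left out. With median scaling the change reversed for Srsf9 (-0.0539), for the dimmer probe of Eif4g2 (-0.0979) and for a probe of Epn2 (-0.109). With an array left out, the change of probes that were not called ranged from -0.108 to 0.0286 for Selenof, -0.181 to 0.0588 for Tspan3, -0.0702 to 0.292 for Nr1d2, -0.123 to 0.0887 for Naca, -0.0552 to 0.128 for Eif4g2 and -0.0658 to 0.0616 for Epn2.

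The labels do not say whether the replicate numbers pair the hearts, and the values do not settle it. Correlations of same-numbered deviations were 0.0124, 0.44, 0.0204 and 0.455, and those of other pairs ran from -0.407 to 0.311. Not every heart correlated best with its own number. With the replicate block 443 probes were called, of which 42.0% were higher, with 112 listed genes and 99 named probes. Probes near the background give only bounds, and 4 mice in each group limit what could be called.

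The calls of Pink1, Jam3 and Ccnd2 were lost without control replicate 4, that of Ddt without control replicate 3, that of Atp6v1d without control replicate 1, that of Srp19 without control replicate 3 or OPP replicate 2, and that of Gabarapl1 without control replicate 2 or OPP replicate 3.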
